A study of Equus caballus with 4 samples.

Results

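Expression of 8 genes for cell surface proteins that hold leukocytes or signal to them was examined in equine satellite cells (ESC), the stem cells of horse muscle. The genes were *ICAM1*, *VCAM1*, *SELE*, *SELP*, *CD44*, *CD47*, *ALCAM* and *CD274*. Members were found as non-control probes of the scanner files whose gene name equals one of these symbols, which gave 12 probes for 6 genes. *VCAM1* was listed under its synonym VCAM and was reached through the RefSeq table. *ICAM1* was listed under a transcript identifier and was reached through the probe's description. With these, the 8 genes had 14 probes on 22 spots, out of 43603 probes on 43803 spots and 13496 genes with a symbol. The primary cells came from m. semitendinosus of stallions aged 6 months and were harvested on day 3 of differentiation. For the HMB-treated group, the cells were incubated with 50 µM HMB (β-hydroxy-β-methylbutyrate, a metabolite of leucine) for 24 h, and 3 mM H2O2, an oxidant, was present for the last 1 h. The control group was given the same H2O2 but no HMB. Each of the 4 two-colour arrays carried RNA of HMB-treated cells in Cy5 and of control cells in Cy3, and each array was counted as 1 replicate.

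Leukocytes leave the blood in steps. Selectins, of which E-selectin (*SELE*) and P-selectin (*SELP*) sit on activated endothelium, catch them by sugar ligands, and the immunoglobulin-type proteins ICAM-1 and VCAM-1 then hold them through integrins. VCAM-1 is also found on myoblasts, where its pairing with the integrin α4β1 has been tied to cell fusion. CD44 binds hyaluronan, ALCAM binds CD6 of T cells or another ALCAM, CD47 binds SIRPα of macrophages and restrains phagocytosis, and PD-L1 (*CD274*) binds PD-1 and dampens T cells.

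On the log2 scale used below, a positive ratio means a brighter HMB (Cy5) than control (Cy3) channel. FC is the same ratio or its inverse on a linear scale. The methods selected the culture with the best viability and fusion, so the 4 replicates need not be 4 horses, and p-values measure only the spread between these arrays. The labels number the control alike on every array. If it was a single RNA, the control's own spread is missing from every error given here. No dyes were swapped, so treatment and dye cannot be told apart. In each channel between 55.2% and 61.8% of spots were well above background, and ratios of any pair of arrays correlated with Pearson's r between 0.837 and 0.920 over probes, which are not independent. A probe entered the test where at least 1 channel was well above background on all 4 arrays. A call required a Benjamini-Hochberg adjusted p of limma of at most 0.05 together with an FC of at least 1.3. Of 24669 tested probes, 28.6% were called, 12.1% as higher and 16.4% as lower in the HMB-treated group. Calls were thus frequent in these data. How often the signals of the groups do not overlap was not counted over all tested probes. Where this is stated for a member, it is description only. Among calls, the higher ones made up 42.5% in the deposited normalization, 55.0% with normexp and loess, 60.1% with loess on uncorrected signals, 31.3% after a correction for probe GC content and 8.31% when the ratios were scaled to the spike-in RNA.

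Of the 8 genes, 5 had a tested probe, and each of the 5 was called higher with HMB. These were *VCAM1*, *ICAM1*, *CD47*, *ALCAM* and *CD44*, with 6 tested probes in all. Over all 8409 tested genes, 10.1% were called higher and 17.2% lower, as background. The median log2 ratio of the 5 genes was 0.93, and that of all tested genes was -0.09. No probe of *SELE*, *SELP* or *CD274* passed the filter on dim signals. Since the filter also passes a probe through the brighter group alone, the 5 genes do not stand for all 8.

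**Figure D1:**
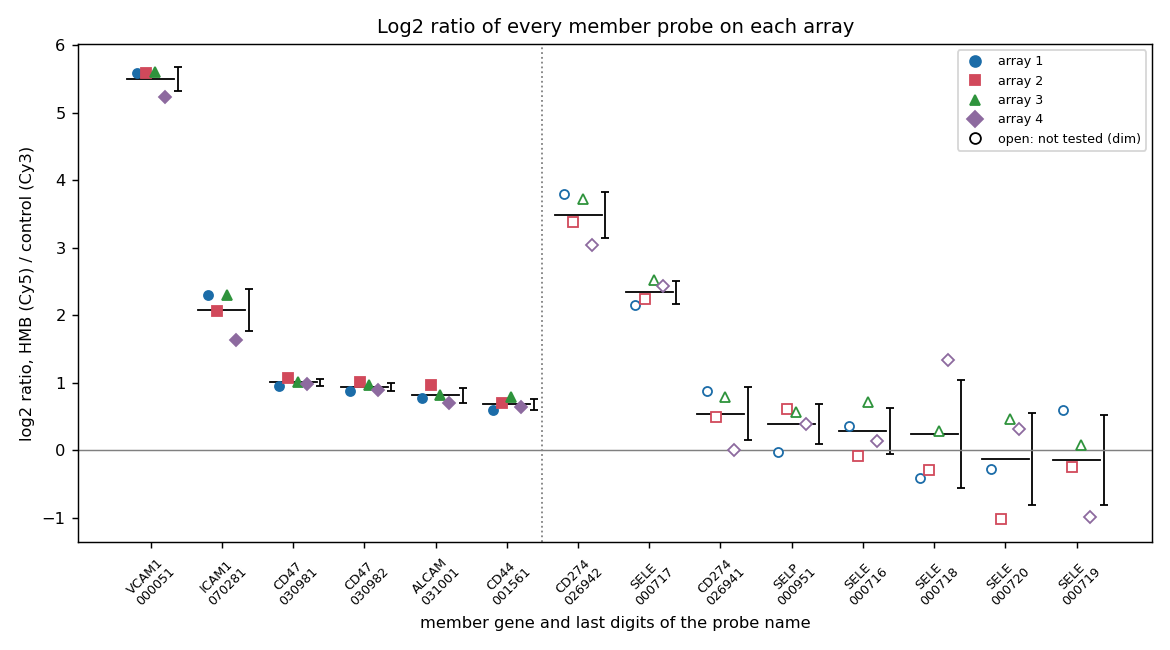
Log2 ratio of HMB over control (vertical axis) for each of the 14 member probes (horizontal axis), with 1 symbol for each array, a line at the mean and a bar of 1 SD beside it. All 6 tested probes (filled) lie above 0 on all 4 arrays, from 5.51 for VCAM1 to 0.68 for CD44, while the 8 probes right of the dotted line were too dim to test.

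*VCAM1* had the largest change of the members. It encodes vascular cell adhesion molecule 1, the ligand of the α4 integrins of leukocytes. Its only probe lies within chr5:38439231-38439290 on the minus strand of EquCab1, the build of the files, and is shown because the largest difference rests on it alone.
VCAM1 probe: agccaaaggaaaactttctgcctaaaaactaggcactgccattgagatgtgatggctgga
The control signals were 54.1, 79.0, 98.4 and 59.6 on arrays 1 to 4, and the HMB signals were 2600, 3820, 4790 and 2240. All 8 signals were well above background, and the lowest HMB signal stood far over the highest control signal. The log2 ratios were 5.59, 5.60, 5.60 and 5.23, with a mean of 5.51 ± 0.18 (SD, n = 4) and an FC of 45.4. The adjusted p of limma was 8.92e-07, and the 95% confidence interval ran from 5.30 to 5.71. Among the 24669 tested probes, this ratio ranked 29 from the top. The control signal was dim, and the lowest Cy3 signal counted as well above background was between 18.3 and 23.6 on the arrays. With normexp and loess the log2 ratio was 3.99, and with loess on uncorrected signals it was 4.53, both still called.

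*ICAM1* encodes intercellular adhesion molecule 1, which binds the β2 integrins LFA-1 and Mac-1. Its probe covers chrUn:145112930-145113073 on the minus strand. A probe of 60 bases on a stretch of 144 bases crosses an intron of the transcript model.
ICAM1 probe: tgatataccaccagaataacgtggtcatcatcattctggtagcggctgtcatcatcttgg
The control signals were 35.0, 35.9, 42.2 and 31.9, close to the limit of detection. The HMB signals were 173, 149, 208 and 99.2. On every array the HMB channel was brighter, with the smallest difference on array 4. The log2 ratios of 2.31, 2.06, 2.30 and 1.64 averaged 2.08 ± 0.31 (SD, n = 4), an FC of 4.22 with an adjusted p of limma of 6.69e-05. Like that of *VCAM1*, this value moved with the background correction. It was 0.82 with normexp and loess and 1.12 with loess on uncorrected signals, still called in both.

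**Figure D2:**
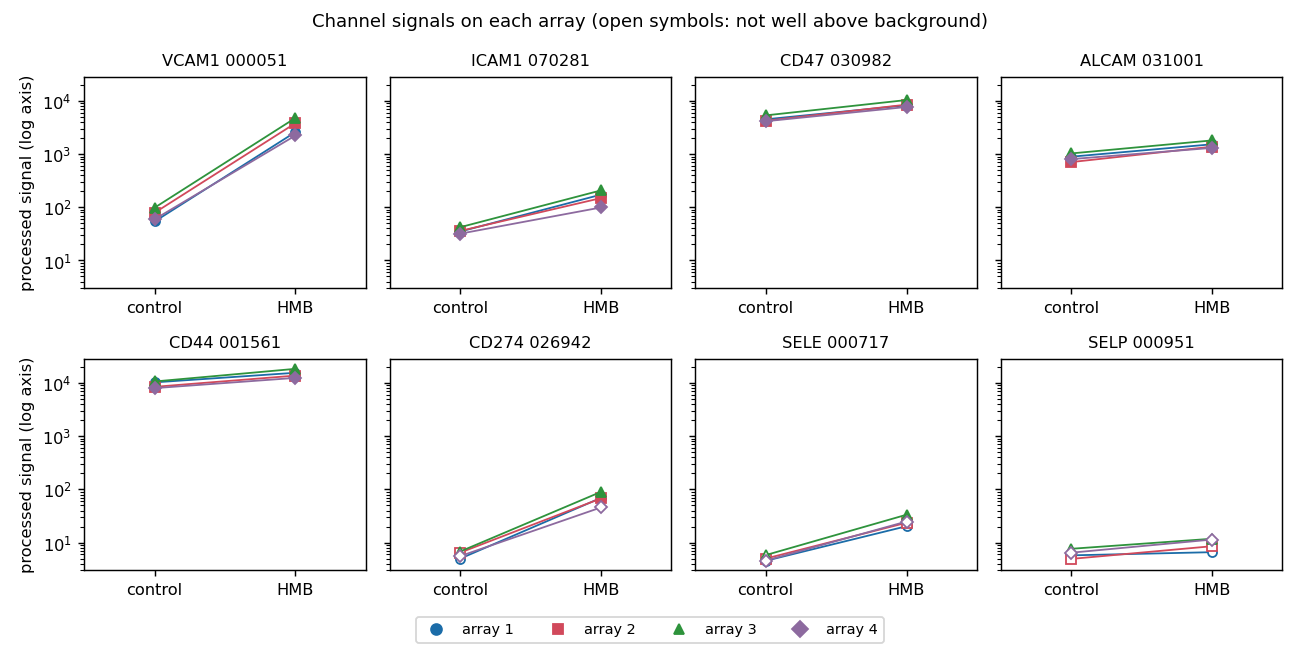
Processed channel signals (vertical log axis, arbitrary units) in control and HMB-treated cells for 8 probes, with a line for each array. VCAM1 rises from 54.1-98.4 to 2240-4790 and CD274 from the background to 45.8-89.9, while both channels of SELP stay at background (open symbols).

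The signals of the selectins lay at or near background. *SELE* was represented by 5 overlapping probes on the minus strand of chromosome 5, between 6160320 and 6160519, and *SELP* by 1 probe at chr5:6053788-6053847. The *SELE* probes are printed because they overlap, with the 23 bases common to all 5 in capitals.
SELE probe A_69_P000716: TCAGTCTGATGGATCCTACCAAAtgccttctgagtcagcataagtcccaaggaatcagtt
SELE probe A_69_P000717: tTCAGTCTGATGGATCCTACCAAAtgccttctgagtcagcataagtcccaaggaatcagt
SELE probe A_69_P000718: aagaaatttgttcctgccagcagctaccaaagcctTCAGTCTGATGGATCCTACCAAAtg
SELE probe A_69_P000719: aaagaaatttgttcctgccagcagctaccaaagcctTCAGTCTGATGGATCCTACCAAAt
SELE probe A_69_P000720: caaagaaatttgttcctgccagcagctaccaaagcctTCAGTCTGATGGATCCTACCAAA
The *SELE* probes A_69_P000716 and A_69_P000717 share 59 of their 60 bases, and A_69_P000718 to A_69_P000720 share at least 58 with each other. No *SELE* probe was well above background in the control channel on any array. In the HMB channel, A_69_P000717, A_69_P000718 and A_69_P000720 passed on 1 array each and the other two on 0 arrays. For A_69_P000717 the HMB signals of 20.3, 23.6, 33.4 and 24.9 stood over control signals between 4.54 and 5.81, and the mean log2 ratio was 2.34. Its twin A_69_P000716, averaged over 5 spots, had HMB signals between 6.05 and 12.1 and a mean log2 ratio of 0.28 ± 0.34 (SD, n = 4). The probe A_69_P000717 thus stood apart from a probe shifted by 1 base. As neither channel was reliably above background, no FC is given. The probes A_69_P000718, A_69_P000719 and A_69_P000720 had mean ratios of 0.23, -0.14 and -0.13, with SDs from 0.67 to 0.80. For *SELP*, 0 of 20 spot values passed in the control channel and 2 of 20 in the HMB channel, and the mean log2 ratio was 0.39 ± 0.29 (SD, n = 4). Of the spot ratios, 8 of 36 for *SELE*, all of A_69_P000716, and 8 of 20 for *SELP* were exactly 0. Each of these had a surrogate in at least 1 channel, so they are no measured equalities. No difference in either selectin could be established at this signal.

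Genes for selectin ligands and for the enzymes that build them were measured in part, although the selectins were at background. Of the 15 genes of this list, 10 had a probe and 8 were tested. Of these, 1 was called higher and 3 lower, with a median log2 ratio of 0.07. The rise was that of *B4GALT1*, a galactosyltransferase, at 0.52 ± 0.10 (SD, n = 4; adjusted p of limma 0.00161). The largest fall was that of *ST3GAL6*, a sialyltransferase, at -0.93 ± 0.16 (SD, n = 4; adjusted p of limma 0.000303). *TPST2*, a sulfotransferase for tyrosines, fell by 0.89 on the log2 scale, and *SELPLG*, the P-selectin ligand PSGL-1, fell by 0.60 from control signals between 53.7 and 62.6. The *SELPLG* value was -0.13 with normexp and loess and -0.22 with loess on uncorrected signals, and called in neither. Its HMB channel was above background on 3 arrays, so it was tested through its control channel alone.

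*CD44* encodes the main surface receptor of hyaluronan. Its probe covers chrUn:290851444-290857649, a stretch of 6206 bases, so it crosses at least 1 intron.
CD44 probe: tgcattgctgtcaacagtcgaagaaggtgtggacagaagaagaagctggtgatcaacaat
The control signals were 10300, 8490, 10700 and 8020, and the HMB signals were 15600, 13800, 18500 and 12500. The lowest HMB signal was above the highest control signal. The log2 ratios of 0.60, 0.70, 0.79 and 0.64 averaged 0.68 ± 0.08 (SD, n = 4), an FC of 1.60 with an adjusted p of limma of 0.000438. This is the smallest change among the tested members. It was not called under either spike-in scaling, where the log2 ratio was 0.27 (adjusted p of limma 0.0128, FC below 1.3) or 0.19 (adjusted p of limma 0.0774).

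Of 17 genes for hyaluronan turnover and partners of CD44, 10 were tested, 2 were called higher, 1 was called lower and 7 were not called. The median log2 ratio was 0.11. *TNFAIP6*, which encodes the hyaluronan-binding protein TSG-6, had log2 ratios of 1.82, 1.83, 2.03 and 1.75, an FC of 3.62 with an adjusted p of limma of 1.1e-05. *HAS2*, a hyaluronan synthase, had log2 ratios of 1.40, 1.62, 0.69 and 0.76. Its mean was 1.12 ± 0.47 (SD, n = 4; adjusted p of limma 0.00295). *SPP1*, which encodes osteopontin, a secreted ligand of CD44 and integrins, fell by 1.29 on the log2 scale, with ratios of -1.17, -1.83, -1.11 and -1.05. The adaptors that link CD44 to actin, *EZR*, *RDX* and *MSN*, were between -0.24 and 0.08 and were not called.

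*ALCAM* encodes the activated leukocyte cell adhesion molecule, and its probe lies within chr19:46963732-46963791 on the minus strand.
ALCAM probe: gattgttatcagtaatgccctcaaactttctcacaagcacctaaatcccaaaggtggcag
The control signals were 894, 708, 1030 and 805, and the HMB signals were 1530, 1380, 1810 and 1310. No HMB signal fell within the range of the controls. The log2 ratios were 0.78, 0.97, 0.81 and 0.70, with a mean of 0.81 ± 0.11 (SD, n = 4), an FC of 1.76 and an adjusted p of limma of 0.000299. With the spike-in intercept of the file headers, the log2 ratio was 0.33 and the FC threshold was missed (adjusted p of limma 0.0118). The T cell partner *CD6* had log2 ratios of -0.16, -0.25, -0.41 and 1.23 and was not called (adjusted p of limma 0.773).

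*CD47* was measured by a pair of probes on chromosome 19, which also carries *ALCAM*. One covers chr19:44910013-44914426, across 4414 bases with an intron, and the other lies within chr19:44909948-44910007. Both are shown because they read different stretches of the transcript, with no shared run longer than 5 bases.
CD47 probe A_69_P030981: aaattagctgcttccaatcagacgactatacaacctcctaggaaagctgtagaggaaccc
CD47 probe A_69_P030982: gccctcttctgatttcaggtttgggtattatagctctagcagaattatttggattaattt
For A_69_P030982, the control signals were 4510, 4240, 5350 and 4150 and the HMB signals 8290, 8520, 10400 and 7700. For A_69_P030981, they were 3980, 3660, 4840 and 3980 in the control and 7730, 7700, 9750 and 7880 in the HMB-treated group. The groups did not overlap on either probe. The log2 ratios of A_69_P030981 were 0.96, 1.07, 1.01 and 0.99, with a mean of 1.01 ± 0.05 (SD, n = 4), an FC of 2.01 and an adjusted p of limma of 6.82e-05. The log2 ratios of A_69_P030982 were 0.88, 1.01, 0.96 and 0.89, with a mean of 0.93 ± 0.06 (SD, n = 4), an FC of 1.91 and an adjusted p of limma of 0.000103. The spread over the arrays was the smallest among the tested members, and each probe was called under every alternative that gave it a value of its own, 21 for A_69_P030981 and 22 for A_69_P030982.

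Of 14 genes for partners and regulators of CD47, 7 were tested, and limma called 0 of them higher and 1 lower. At an unadjusted p below 0.05, 1 was higher and 1 was lower, and the methods' t-test with correction called 0 in either direction. The median log2 ratio was -0.02. The gene called lower was *ITGAV*, the αv chain of an integrin that associates with CD47, at -0.68 ± 0.30 (SD, n = 4; adjusted p of limma 0.00502). Of its 6 tested probes, 4 were called lower, and the mean log2 ratio over all 6 was -0.53. *THBS1*, which encodes the CD47 ligand thrombospondin-1, had log2 ratios of -0.74, -0.59, 0.21 and -0.34 and was not called (adjusted p of limma 0.0965). It was called lower without array 3, at -0.56 (adjusted p of limma 0.0140), with array weights, at -0.46, after GC correction, at -0.45, and under both spike-in scalings, at -0.78 and -0.85. *QPCTL*, the enzyme that modifies CD47 for SIRPα binding, was at -0.14 and was not called. *SIRPA* itself was not tested, since its control channel was above background on 1 array and its HMB channel on 3.

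*CD274* encodes PD-L1. It had a pair of probes that lie end to end, chr23:17094920-17096498 across an intron and chr23:17096499-17096558. They are printed because only A_69_P026942 gave a signal above background.
CD274 probe A_69_P026942: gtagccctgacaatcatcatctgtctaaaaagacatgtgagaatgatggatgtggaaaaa
CD274 probe A_69_P026941: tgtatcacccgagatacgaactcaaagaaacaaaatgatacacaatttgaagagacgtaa
For A_69_P026942, the control signals of 4.99, 6.47, 6.79 and 5.56 were at background on all 4 arrays. The HMB signals of 69.2, 67.7, 89.9 and 45.8 were well above background on arrays 1, 2 and 3 and not on array 4. The channels did not overlap, with log2 ratios of 3.79, 3.39, 3.73 and 3.04 and a mean of 3.49 ± 0.35 (SD, n = 4). Because the control was at background, no FC was measured. As an estimate, the mean HMB level was 3.18-fold the lowest control signal that counted as well above background on each array. It is no strict lower limit, since that signal is not a limit of detection. On array 4 the HMB signal of 45.8 was not well above background, although other signals of that channel down to 28.1 were. All 4 control values were surrogates that the software set in place of a background-level signal, so no test of the ratio is taken as support. The probe A_69_P026941 was not well above background in either channel on any array, with control signals between 5.11 and 13.4 and HMB signals between 8.90 and 23.2. Its log2 ratios of 0.88, 0.50, 0.79 and 0.00 averaged 0.54 ± 0.40 (SD, n = 4). On array 4 its HMB signal of 8.90 was a surrogate and its control signal was 5.82, so the 0.00 there is no measured equality. The pair of adjacent probes thus did not read alike.

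Of 15 other immune checkpoint ligands and regulators, 6 were tested, and limma called 2 higher and 0 lower. At an unadjusted p below 0.05, 3 were higher and 0 lower, and the methods' t-test gave the same counts of calls, 2 and 0. The median log2 ratio was 0.16. *CD40*, a costimulatory receptor of the TNF receptor family, had log2 ratios of 2.16, 2.52, 2.34 and 2.18, an FC of 4.91 with an adjusted p of limma of 7.76e-06. *ICOSLG*, the ligand of ICOS, was at 1.39 ± 0.51 (SD, n = 4; adjusted p of limma 0.00173), with a control channel above background on only 1 array. It was not called with normexp and loess, at 0.33. *CMTM6* and *CMTM4*, which stabilize PD-L1 at the membrane, were at 0.04 and 0.26 and were not called. *PDCD1LG2*, the other ligand of PD-1, had 4 probes, none of them above background on more than 1 array. *PDCD1*, which encodes PD-1, was at -0.31 in signals between 22.2 and 42.1 and was not called (adjusted p of limma 0.0597). It was called lower without array 3, at -0.42 (adjusted p of limma 0.0342), with median centring, at -0.55, and under both spike-in scalings, at -0.72 and -0.80. *CD80* had no probe under its name.

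In the order of the log2 ratio, *VCAM1* was followed by *ICAM1*, *CD47*, *ALCAM* and *CD44*, and each exceeded the next on 4 of 4 arrays. *VCAM1* exceeded *ICAM1* by 3.43 ± 0.16 (SD, n = 4) and *ICAM1* exceeded *CD47* by 1.14 ± 0.31 (SD, n = 4). *CD47* exceeded *ALCAM* by only 0.12 ± 0.07 and *ALCAM* exceeded *CD44* by 0.13 ± 0.11 (SD, n = 4). In these last pairs the limma intervals overlapped, from 0.79 to 1.08 for *CD47*, 0.65 to 0.98 for *ALCAM* and 0.53 to 0.84 for *CD44*. For each of the 4 pairs, an exact two-sided permutation test over the arrays gave p = 0.125 (0.125 after correction over the pairs), the smallest that 4 arrays allow. The pairs were formed by sorting these same ratios, so neither these p-values nor the counts of arrays test the order. Under normexp and loess *ICAM1* fell below *CD47*, at 0.82 against 0.90.

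For each tested member, the 3 genes whose ratios on the 4 arrays lay nearest were found by Euclidean distance among all tested genes, as a description. Nearest to *VCAM1* were *SAMD9L*, *RSAD2* and *IFIH1*, at distances from 0.51 to 0.67 and mean log2 ratios from 5.30 to 5.37. Nearest to *ICAM1* were *IFITM5*, *OSMR* and *DHRS3*, at distances from 0.36 to 0.41. *CD47* lay nearest to *GJA1* (0.10), *OAF* and *GCA*, *ALCAM* to *SNX30* (0.12), *SFT2D2* and *IFT74*, and *CD44* to *TRIM56* (0.11), *UST* and *SAFB*. Distances were wider for the largest changes, where fewer genes lie.

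The receptors of leukocytes for these molecules were read on the same arrays. Of 16 leukocyte counter-receptors, 6 were tested, and limma called 0 higher and 2 lower, with a median log2 ratio of -0.30. Of the 15 with a probe, 6 were above background in neither channel on any array. At an unadjusted p below 0.05, 0 were higher and 4 lower, and the methods' t-test with correction called 0 higher and 1 lower. *ITGAL* and *ITGAM*, the α chains of LFA-1 and Mac-1 that bind ICAM-1, were above background in neither channel on any array, and their common β chain *ITGB2* in each channel on 1 array only. The chains of the VCAM-1 receptor α4β1 were both measured. *ITGA4* had log2 ratios of -0.16, -0.26, 0.37 and 0.23 with a mean of 0.04 (adjusted p of limma 0.781), and it turned to -0.44 with a call only under the spike-in intercept. *ITGB1* was at -0.29 ± 0.22 (SD, n = 4; adjusted p of limma 0.0451), an FC of 1.23 that missed the threshold. It was called lower under both spike-in scalings, at -0.71 and -0.78. The other β chain that pairs with α4, *ITGB7*, was called lower at -1.21 ± 0.39 (SD, n = 4; adjusted p of limma 0.00121), but its HMB channel was above background on 1 array only. It was -0.19 with normexp and loess and -0.33 with loess on uncorrected signals, and called in neither. The other gene called lower was *SELPLG*, at -0.60. It too was tested through its control channel alone and was called in neither of these settings.

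Other adhesion molecules of the vessel wall did not move as one. Of 18 genes, 8 were tested, 1 was called higher, 3 were called lower and 4 were not called, and the median log2 ratio was -0.13. *THY1*, a ligand of Mac-1 that fibroblasts also carry, rose by 0.76 ± 0.12 (SD, n = 4; adjusted p of limma 0.000441). *NCAM1*, the neural cell adhesion molecule, which myoblasts and myotubes express, was lower at -1.13 ± 0.21 (SD, n = 4; adjusted p of limma 0.000251). The junctional molecules *JAM2* and *JAM3* were also lower, at -0.45 and -0.51. Neither was called by treat (adjusted p 0.831 and 0.353), with normexp and loess (-0.37 and -0.34) or with loess on uncorrected signals, and *JAM2* was not called with median centring. The relatives *ICAM3*, *ICAM4* and *ICAM5* were at -0.09, -0.18 and 0.36 and were not called.

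Of 12 proteases and cofactors that shed adhesion molecules, 8 were tested, 1 was called higher, 1 was called lower and 6 were not called, with a median log2 ratio of -0.01. *MMP9* was higher at 0.59 ± 0.24 (SD, n = 4; adjusted p of limma 0.00457) and *ADAM15* lower at -0.71 ± 0.35 (SD, n = 4; adjusted p of limma 0.00659). Neither was called by the methods' t-test after correction (adjusted p 0.0519 and 0.0706), by treat (adjusted p 0.247 and 0.155) or with normexp and loess, at 0.33 and -0.38, and *MMP9* was also not called under either spike-in scaling. *ADAM17* and *ADAM10*, which cleave several of the members, were at -0.15 and 0.24 and were not called.

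**Figure D3:**
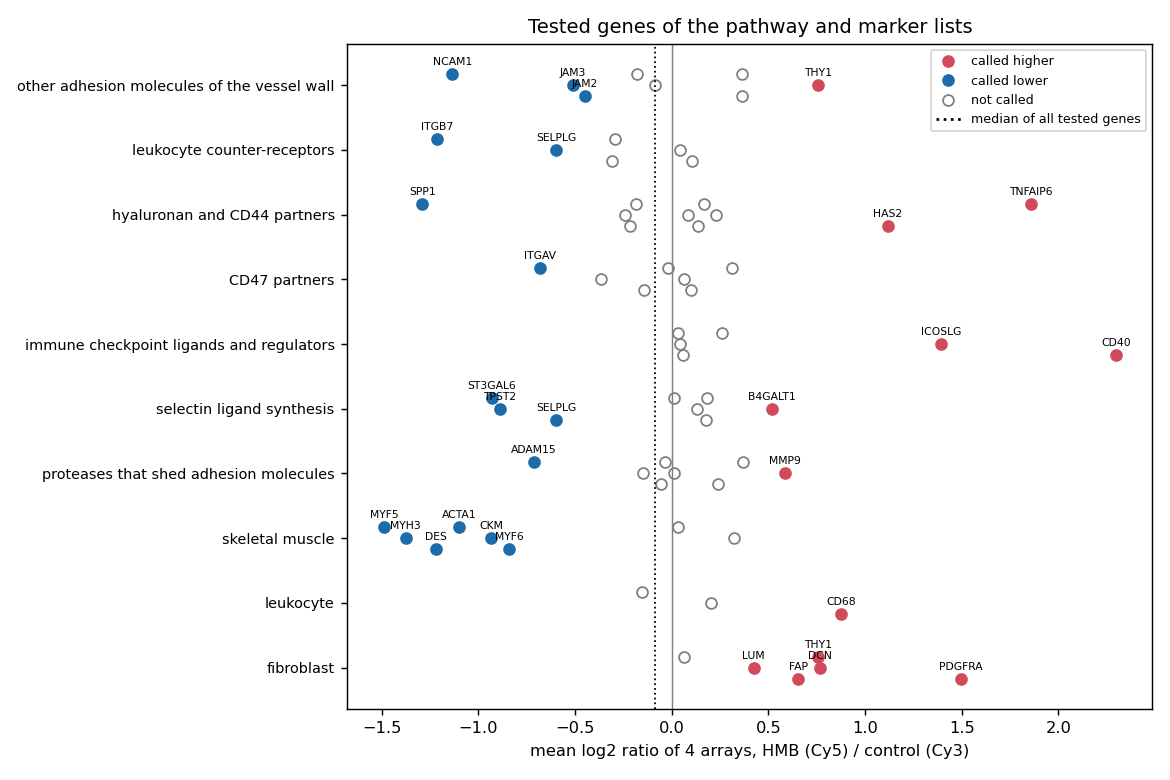
Mean log2 ratio of HMB over control (horizontal axis) for each tested gene of the 7 pathway lists and of the marker lists (vertical axis), coloured by call, with the median of all tested genes dotted. CD40 at 2.30 and TNFAIP6 at 1.86 lie farthest right, and 6 of 8 muscle markers lie on the left.

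Markers of other cell types were read beside the members. Of 8 endothelial markers, 6 had a probe and 0 were tested. *PECAM1*, *CDH5*, *VWF* and *KDR* were above background in neither channel on any array, and *TEK* and *TIE1* in the HMB channel on 1 array each. Of 11 leukocyte markers, 3 were tested, with limma calling 1 higher, *CD68* at 0.88. *CD14*, with control signals between 3590 and 4320 and HMB signals between 3980 and 5980, and *MS4A1*, with signals between 188 and 345, were above background in both channels on all arrays and were not called. *AIF1*, *ITGAM* and *CD3E* were above background in neither channel on any array, and *PTPRC* had no probe under its name. The signals of the 3 tested leukocyte markers summed to between 3860 and 4740 in the control and between 4310 and 6470 in the HMB-treated group, most of it from *CD14*. Of 8 fibroblast markers, 6 were tested, and 5 of them were called higher, with a median log2 ratio of 0.71, *PDGFRA* at 1.49 and *DCN* at 0.77. The signals of the 6 tested fibroblast markers summed to between 198000 and 226000 in the control and between 228000 and 348000 in the HMB-treated group. Most of it came from *COL3A1*, between 130000 and 159000 in the control and between 132000 and 207000 in the HMB-treated group. *COL3A1* was the marker not called, at 0.06 for its brightest probe, although 3 of its 7 tested probes were called higher. The cell isolation had included a step in which fibroblasts were left to adhere. Of 12 skeletal muscle markers, 8 were tested and 6 were called lower, with a median of -1.02, *MYH3* at -1.38 and *MYF5* at -1.49. *MYOD1* and *MYOG*, regulators of myogenesis, were at 0.32 and 0.03 and were not called. Both channels were above background on all arrays for 7 of the 8, and *PAX7*, the marker of satellite cells, had no probe under its name. The muscle signals summed to between 166000 and 187000 in the control and between 63200 and 101000 in the HMB-treated group. The part of these shifts in the members' ratios was not tested. In such bulk RNA, a change in the share of a cell type and a change in RNA per cell cannot be told apart.

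The spike-in RNA of the arrays read higher in Cy5 than in Cy3, by a median of 0.35 to 0.45 on the log2 scale. Scaling the spike-in RNA to equal channels, which assumes a balanced kit, moved the median of all tested probes from -0.07 to -0.48. *VCAM1*, *ICAM1*, *CD47* and *ALCAM* were still called higher, at 5.09, 1.66, 0.52 (A_69_P030982) and 0.40, and *CD44* was not. With the intercept that the scanner software gives in the file headers, the median was -0.56, and *VCAM1*, *ICAM1* and *CD47* were called, 3 of the 5 genes. The ratio of all 6 probes was positive under each alternative that gave it a value.

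**Figure D4:**
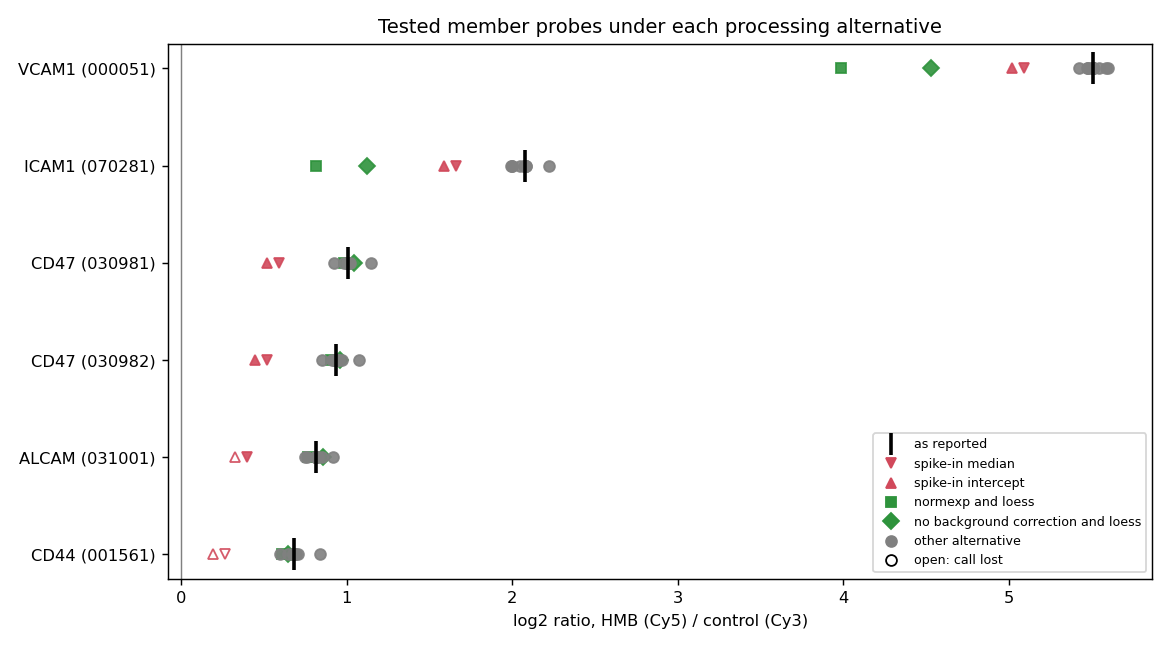
Log2 ratio of HMB over control (horizontal axis) of the 6 tested member probes (vertical axis) as reported and under each processing alternative. The background settings move VCAM1 and ICAM1, and the spike-in scalings move all 6 probes, with open symbols for the lost calls of ALCAM and CD44.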

How the data were processed

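Cy5-labeled RNA of HMB-treated ESC and Cy3-labeled RNA of control ESC were hybridized together on 4 Agilent horse arrays of 1 slide. For the intensity values, the authors deposited the scanner output of Feature Extraction (version 10.10.1.1 in the file headers, EquCab1), with background-subtracted signals normalized by linear and lowess fits within each array. Dim signals had been replaced by surrogates. The deposited log10 values are ratios of Cy5 over Cy3, and the authors' table of normalized values repeats these ratios. The log2 values were computed here from the deposited log10 ratios.

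Analyses were run in R 4.3.3 with limma 3.58.1 and the data.table package (version 1.17.8). Control spots were left out, likewise those flagged by the software for non-uniformity or as population outliers, and the spots of each probe were averaged. A channel passed where all spots of the probe were well above background. limma's empirical Bayes test of the ratios against 0 was fitted over all tested probes, each array as 1 replicate, after being tested on simulated data. Genes are given by their brightest tested probe. Named were all members, their direct partners, the largest called rise and fall of each list, and the 3 nearest genes. Further genes of the lists were named after their values were seen. The members, the 7 pathway lists and the 4 marker lists were chosen with earlier results of these data known. A marker of the leukocyte list is not reported here and is left out of its counts. For *CD274*, the bright channel was set against the lowest signal well above background, after quantile normalization of the mean intensities between arrays. The nearest genes were ranked by distance over the 4 ratios. Symbols were matched to RefSeq for names alone, and 15476 probes kept only an accession. The number of arrays limits the precision. The alternatives comprised the methods' t-test, treat, trended and robust moderation, array weights, separate channels, normexp with an offset of 50, no background correction, median centring, spike-in scaling (by the header's intercept as an addition after seeing the data), scale normalization, GC correction, the authors' deposited values, marked spots kept, other filters, gene means, members by file symbol only, and each replicate left out.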

Additional observations from a re-analysis of the deposited data

Results flagged for a closer look

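In 4 of 28 tested items, members and the named list genes, 1 array stood apart from the other three by more than Dixon's 95% critical value, measured as the gap to the nearest array over the whole range. Chance flags about 1 in 20 groups. For *VCAM1* the value was 0.951, from a log2 ratio of 5.23 on array 4 against 5.59 to 5.60 on the others. For *CD6* it was 0.852, from 1.23 on array 4 against -0.41 to -0.16. For *SPP1* it was 0.855, from -1.83 on array 2 against -1.17 to -1.05, and for *ST3GAL6* 0.879, from -1.17 on array 2 against -0.88 to -0.84. Leaving out array 4 gave 5.60 for *VCAM1*, which was called without any one array.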

How the results depend on the processing

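Each of the 6 tested member probes had a positive ratio under every alternative that gave it a value, and calls were lost only under spike-in scaling, the median of which dropped *CD44* (0.27) and the header's intercept *CD44* (0.19) and *ALCAM* (0.33). Of the 5 genes called higher, 3 were left with that intercept, and 3 when members were taken by the file's own symbol only. Over all tested probes, 7046 calls, 2996 higher and 4050 lower, became 2822, 1542 and 1280 with treat, 3538, 1945 and 1593 with normexp and loess, and 16724, 1390 and 15334 with the spike-in median. They became 18570, 1247 and 17323 with the spike-in intercept. With loess on uncorrected signals there were 4439 calls, of which 1770 were lower. Of the 52 tested genes of the pathway lists, 7 were called higher and 10 lower. These counts became 4 and 4 with normexp and loess, 4 and 24 with the spike-in median, and 4 and 31 with the spike-in intercept. The number lower was 5 with treat and 6 with loess on uncorrected signals, and the number higher was 11 with median centring. *ITGA4*, not called at 0.04, was called lower at -0.44 with the spike-in intercept. Among named list genes, *HAS2*, *SELPLG*, *ITGAV*, *MMP9* and *ADAM15* were not called by the methods' t-test after correction (adjusted p from 0.0519 to 0.0706), *SELPLG*, *JAM2*, *JAM3*, *ITGAV*, *B4GALT1*, *MMP9* and *ADAM15* by treat, *SELPLG*, *ICOSLG*, *JAM2*, *JAM3*, *ITGB7*, *ITGAV*, *B4GALT1*, *MMP9* and *ADAM15* with normexp and loess, and *THY1*, *B4GALT1* and *MMP9* with either spike-in scaling. The cause of these differences was not tested. Leaving out 1 replicate at a time gave 6663 to 7366 called probes, 2736 to 3269 of them higher and 3927 to 4124 lower. Between 5 and 6 members were called higher. The sixth was *CD274* without array 4, which passes through its HMB channel alone against surrogate control values and is no support for a call. With no filter on dim probes, 6 members were likewise called higher. In that setting limma called *CD274* A_69_P026942 (3.49, adjusted p 0.00434) and *SELE* A_69_P000717 (2.34, adjusted p 0.00308). The control channel of both probes was at background on every array, so these calls are no support either. Of the list genes, 7 to 10 were higher and 10 to 12 lower. Leaving out an array gave 5.47 to 5.60 for *VCAM1* and 2.00 to 2.22 for *ICAM1*. Every ratio already pairs the RNAs of 1 array, so no further block was fitted. Signals near background limit *ICAM1*, *CD274* and the selectins.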
